A study of Drosophila melanogaster with 8 samples.

Results

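The sperm leucyl aminopeptidase genes of *Drosophila melanogaster* (*S-Lap* genes) were followed through RNA-seq libraries of midguts from larvae of the third instar. The 7 genes, *S-Lap1*, *S-Lap2*, *S-Lap3*, *S-Lap4*, *S-Lap5*, *S-Lap7* and *S-Lap8*, were taken by FlyBase symbol from the 17713 genes counted. They were selected on their counts, which lie near 0 in the libraries of *Pngl* null larvae. Their level there is therefore a description, and tests are given only between the genotypes that served as controls.

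Leucyl aminopeptidases of the M17 family are metal-dependent enzymes that trim residues from the amino end of peptides. The *S-Lap* genes encode relatives of these enzymes that are made in the testis and rank among the most abundant proteins of fly sperm. Their products fill the mitochondrial derivatives that run along the sperm tail, and several of them are thought to have lost enzymatic activity. In males of the third instar the testes lie embedded in the fat body, and they hold germ cells up to the primary spermatocyte, the stage at which most genes for sperm building are transcribed. A midgut is not known to use these genes.

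All libraries came from pools of male and female larvae 96 hours after egg laying, in a *y w* background (mutant for *yellow* and *white*). The control *y w* is wild type for *Pngl*, the gene for the cytoplasmic N-glycanase. *Pngl+/-* larvae carried Pngl[ex14] over a CyO balancer with Kr>GFP, and *Pngl-/-* larvae carried Pngl[ex14] on both chromosomes. *Pngl Dp/+* larvae were homozygous for the same allele and also had the transgene PBac{Pngl[wt]Ch322-3O13}VK27. Each genotype had 2 libraries. The sample labels name 40 midguts for a genotype and the study's methods give another number and another insertion site for the transgene, so the size of the pools and the exact rescue line are uncertain. Neither gives the number of males in a pool. The CyO balancer was present in *Pngl+/-* alone, so its effect and that of *Pngl* dosage cannot be told apart.

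Library totals ranged from 20414011 to 28382919 counts. Between replicate libraries the chi-square per gene was 2.51 in *Pngl-/-*, 5.16 in *y w*, 7.16 in *Pngl+/-* and 14.33 in *Pngl Dp/+*. No pair was therefore a single library deposited again. *Pngl* mRNA did not set the null libraries apart by a loss, since it was 57.2 ± 1.116 CPM (SD, n = 2) there and 20.8 ± 0.29 to 43.1 ± 2.51 CPM in the controls (CPM are counts relative to library size, which is corrected by TMM factors throughout). Exons of *Strica*, on the other strand, overlap those of *Pngl* by 385 bases. Midgut transcripts were present in every library, and 10 midgut genes summed to between 4019 and 12505 CPM. Transcripts of other tissues were abundant too. The 7 fat body genes summed to between 24553 and 53360 CPM, and the 6 salivary glue genes to between 3552 and 6931 CPM.

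The 7 genes lie at 5 places in the dm6 genome, as 2 pairs and 3 single genes. *S-Lap1* (FBgn0035915, chromosome 3L from 8617235 to 8619474, plus strand) and *S-Lap2* (FBgn0052351, 3L from 8619888 to 8622091, plus strand) are tandem neighbours with 413 bases between them. *S-Lap3* (FBgn0045770, 3L from 10465187 to 10468974, plus strand) and *S-Lap4* (FBgn0052064, 3L from 10490861 to 10492934, plus strand) lie 21886 bases apart. On chromosome 2R are *S-Lap5* (FBgn0033860, 13596677 to 13598750, plus strand), *S-Lap7* (FBgn0033868, 13778124 to 13780245, minus strand) and *S-Lap8* (FBgn0034132, 16491100 to 16493233, plus strand). All are protein coding, with 1 to 3 merged exons. Of the 7, *S-Lap2* alone shares exonic sequence with another annotated gene, 53 bases with *GAPsec* on the opposite strand. *GAPsec* had 165 and 137 counts in the null libraries, where *S-Lap2* had 0 and 1. The members are paralogs, and how reads with several alignments were counted is not given in the sources used here, so the division of reads between near-identical stretches is uncertain.

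Every control library held *S-Lap* mRNA at a low level. Summed over the 7 genes, the level was 23.5 and 23.9 CPM in *y w*, 20.8 and 20.04 CPM in *Pngl Dp/+*, 5.64 and 6.19 CPM in *Pngl+/-* and 0.155 and 0.297 CPM in *Pngl-/-*. The genotypes did not overlap, and the sum in *y w* was 4.02 times that in *Pngl+/-* (95% counting interval 3.49 to 4.64). The null libraries together held 9 *S-Lap* reads, against 1228 in *y w*, 1104 in *Pngl Dp/+* and 236 in *Pngl+/-*. Bulk RNA does not tell fewer cells of a type from less RNA per cell. Intervals of this kind are exact (Clopper-Pearson) and cover counting error only.

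**Figure D1:**
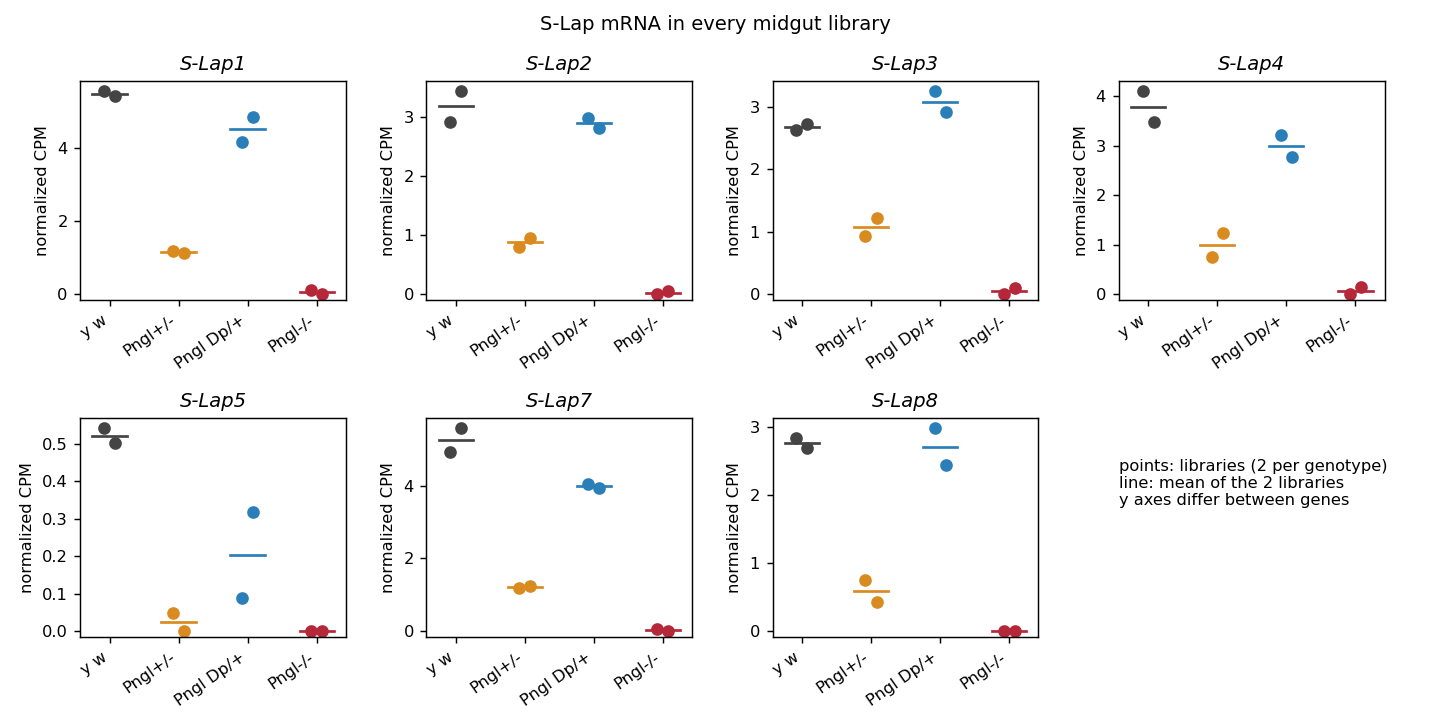
Normalized CPM of each *S-Lap* gene (y axis, a separate scale for each gene) in every library of the 4 genotypes (x axis), with a line at the mean of the 2 libraries. In each panel but that of *S-Lap5*, *y w* and *Pngl Dp/+* are high, *Pngl+/-* is lower, and *Pngl-/-* is at or near 0. For *S-Lap1* these means are 5.49, 4.52, 1.15 and 0.0518 CPM. *S-Lap5* is at 0.544 and 0.502 CPM in *y w*, 0.088 and 0.317 in *Pngl Dp/+*, and at or near 0 in *Pngl+/-* and *Pngl-/-*.

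*S-Lap1* was the most abundant member, with 133 and 151 counts in *y w*, 25 and 21 in *Pngl+/-*, 95 and 153 in *Pngl Dp/+*, and 2 and 0 in *Pngl-/-*. *S-Lap7* followed, with 118 and 156 counts in *y w*, 25 and 23 in *Pngl+/-*, 92 and 124 in *Pngl Dp/+*, and 1 and 0 in *Pngl-/-*. For both genes the libraries of *Pngl+/-* lay below those of *y w* and *Pngl Dp/+* and above those of *Pngl-/-*. They were also the only members to pass the study's filter on low counts, which asks for 5 CPM or more in 2 libraries or more.

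The tandem neighbour of *S-Lap1*, *S-Lap2*, had 70 and 96 counts in *y w*, 17 and 18 in *Pngl+/-*, 68 and 89 in *Pngl Dp/+*, and 0 and 1 in *Pngl-/-*. *S-Lap4* had 98 and 97 counts in *y w*, 16 and 23 in *Pngl+/-*, 73 and 87 in *Pngl Dp/+*, and 0 and 3 in *Pngl-/-*. Its neighbour *S-Lap3* had 63 and 76 counts in *y w*, 20 and 23 in *Pngl+/-*, 74 and 92 in *Pngl Dp/+*, and 0 and 2 in *Pngl-/-*. In each of them *Pngl+/-* again lay between *Pngl-/-* and the other genotypes. *S-Lap3* was the only member of the 7 with a higher mean CPM in *Pngl Dp/+* than in *y w*, a difference that was not called.

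*S-Lap8* had 68 and 75 counts in *y w*, 16 and 8 in *Pngl+/-*, 68 and 77 in *Pngl Dp/+*, and none in *Pngl-/-*. *S-Lap5* was the rarest member, with 13 and 14 counts in *y w*, 1 and 0 in *Pngl+/-*, 2 and 10 in *Pngl Dp/+*, and none in *Pngl-/-*. It is the member for which the depth limits every statement, and its 2 *Pngl Dp/+* libraries disagreed.

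The order of the genes was read per kilobase of merged exon, since the annotated *S-Lap3* exons are longer than the others (3014 bases against 2055 to 2122). In *y w* it ran from *S-Lap1* at 2.59 ± 0.0484 CPM per kb (SD, n = 2) and *S-Lap7* at 2.48 ± 0.22 CPM per kb, through *S-Lap4* at 1.83 ± 0.211, *S-Lap2* at 1.52 ± 0.174 and *S-Lap8* at 1.35 ± 0.0527, to *S-Lap3* at 0.889 ± 0.0216 and *S-Lap5* at 0.252 ± 0.0141 CPM per kb. *S-Lap1* and *S-Lap7* overlapped between libraries. *S-Lap2* and *S-Lap8* nearly touched, at 1.398 and 1.38 CPM per kb in their closest libraries.

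The members kept similar proportions to each other across the controls. *S-Lap1* made up 23.1% of the summed *S-Lap* count in *y w* (exact 95% interval 20.8 to 25.6), 19.5% in *Pngl+/-* (14.6 to 25.1) and 22.5% in *Pngl Dp/+* (20.03 to 25.04). *S-Lap7* made up 22.3%, 20.3% and 19.6%. The largest departure was that of *S-Lap3*, at 11.3% in *y w* (9.60 to 13.2), 18.2% in *Pngl+/-* (13.5 to 23.7) and 15.0% in *Pngl Dp/+* (13.0 to 17.3), where the intervals of *y w* and *Pngl+/-* do not overlap. In *Pngl-/-* 9 reads are too few to give proportions.

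**Figure D2:**
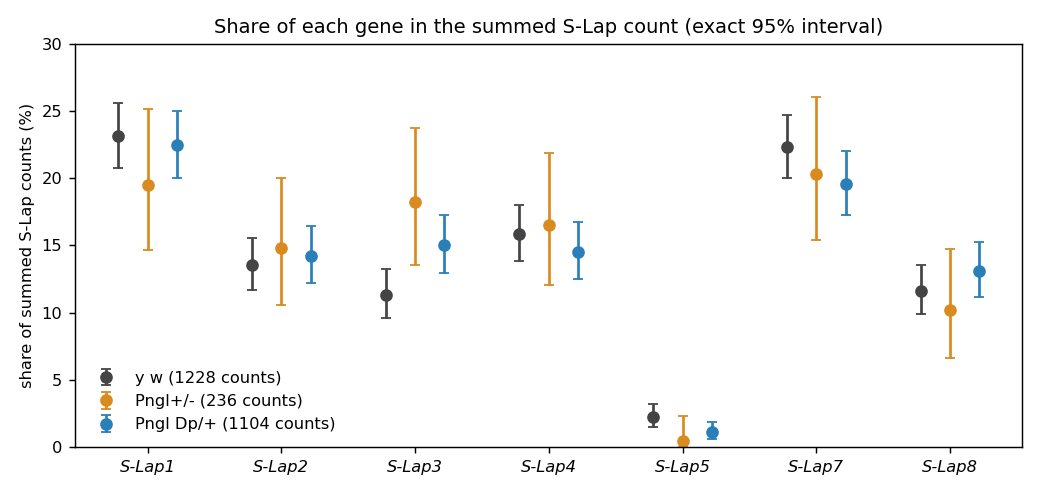
Share of the summed *S-Lap* count taken by each gene (y axis, percent) in the 3 control genotypes, both libraries together, with exact 95% counting intervals. Most genes keep about the same share, such as *S-Lap1* at 23.1%, 19.5% and 22.5%, while *S-Lap3* is at 11.3% in *y w* and 18.2% in *Pngl+/-*.

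Next, *Pngl+/-* was compared with *y w*. The rule that chose the genes does not name this contrast, but the choice was made with earlier results known, and most genes near 0 in the null were also low in *Pngl+/-*, as counted further on. The tests here are therefore not independent of the choice. All 7 members were called lower in *Pngl+/-*. Genes are said to be called where edgeR's quasi-likelihood test over all 8 libraries gave a change of 1.5-fold or more with an adjusted p no higher than 0.05. *S-Lap1* and *S-Lap7* were tested among the 7665 genes that passed the filter, of which 17.5% were called lower here. Both had passed through the *y w* libraries, where they are high, *S-Lap7* in those 2 alone and *S-Lap1* also in 1 of *Pngl Dp/+*. In the fit of all genes with at least 10 counts their adjusted p was 8.08e-08 and 8.1e-08 (edgeR). The other 5 were tested among the 12990 genes with at least 10 counts in all, of which 22.5% were called lower.

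*S-Lap1* fell by 2.25 on the log2 scale (standard error 0.205, adjusted p = 1.11e-07 from edgeR), from 5.49 ± 0.102 CPM (SD, n = 2) to 1.15 ± 0.0385 CPM, 4.78-fold. *S-Lap7* fell by 2.13 (standard error 0.189, edgeR adjusted p = 7.69e-08), 4.38-fold. The fold was 4.69 for *S-Lap8*, 3.83 for *S-Lap4*, 3.62 for *S-Lap2* and 2.47 for *S-Lap3*, with edgeR adjusted p between 7.31e-06 and 0.000418. *S-Lap5* was 20.8 times higher in *y w*, but 1 read in *Pngl+/-* leaves a counting interval from 3.44 to 853 (edgeR adjusted p = 0.002). Its log2 fold change of -4.12 became -6.63 without replicate 1 of *Pngl+/-* and -3.33 without replicate 2, and it was called in both cases. The median log2 fold change of the 7 was -2.13, beside -0.19 over the 12990 genes.

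*Pngl Dp/+* was much nearer to *y w*. edgeR's quasi-likelihood test called 0 of the 7 members, where it called 12.5% of the 7665 genes and 12.1% of the 12990 in either direction. At an unadjusted p under 0.05 there was 1 member, *S-Lap7*. The likelihood ratio test also called 0 of 7, and DESeq2 0 of the 6 to which it gave an adjusted p. *S-Lap7* had a log2 fold change of -0.40 (standard error 0.144, edgeR adjusted p = 0.0282), which is past the p threshold but under 1.5-fold. It had passed the filter through the *y w* libraries alone. In the fit of 12990 genes its edgeR adjusted p was 0.0471, and DESeq2 gave an adjusted p of 0.193. Both of its *Pngl Dp/+* libraries lay below those of *y w*. The *Pngl Dp/+* libraries of *S-Lap1*, *S-Lap4* and *S-Lap5* also lay below those of *y w*, and those of *S-Lap3* lay above. How many of all genes have libraries that do not overlap was not counted, so this is a description only. The summed level in *y w* was 1.16 times that in *Pngl Dp/+* (counting interval 1.07 to 1.26). Approximate intervals were taken as 1.96 standard errors either side, which is narrower than the edgeR test allows. They ran from -0.57 to 0.03 for *S-Lap1*, -0.52 to 0.24 for *S-Lap2* and -0.21 to 0.60 for *S-Lap3*. For *S-Lap4* the range was -0.77 to 0.07 and for *S-Lap8* -0.47 to 0.39. Differences within these intervals were not detectable at this depth.

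*S-Lap5* had the widest interval in this comparison, from -2.40 to -0.08 around a log2 fold change of -1.24 (edgeR adjusted p = 0.12). This approximate interval leaves out 0, although the unadjusted p of the edgeR test was 0.0527. The call of *S-Lap5* rested on 1 library. Without replicate 2 of *Pngl Dp/+* the log2 fold change was -2.49 with an edgeR adjusted p of 0.0494, which is called.

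Between *Pngl Dp/+* and *Pngl+/-*, 6 of the 7 members were called higher in *Pngl Dp/+*. Among all genes 14.0% of the 7665 and 14.8% of the 12990 were called higher. These comparisons share the *Pngl+/-* and *Pngl Dp/+* libraries with the preceding ones, so they are not independent of them. The log2 fold change was 1.98 for *S-Lap1* (standard error 0.21, edgeR adjusted p = 8.77e-07), and it ranged from 1.51 for *S-Lap3* to 2.16 for *S-Lap8* among the members called. *S-Lap5* had a ratio of 8.84 (counting interval 1.31 to 378) and was not called (edgeR adjusted p = 0.0525). Without replicate 1 of *Pngl Dp/+* it was called, with an edgeR adjusted p of 0.0206, and with no filter on low counts it was called at 0.0474.

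**Figure D3:**
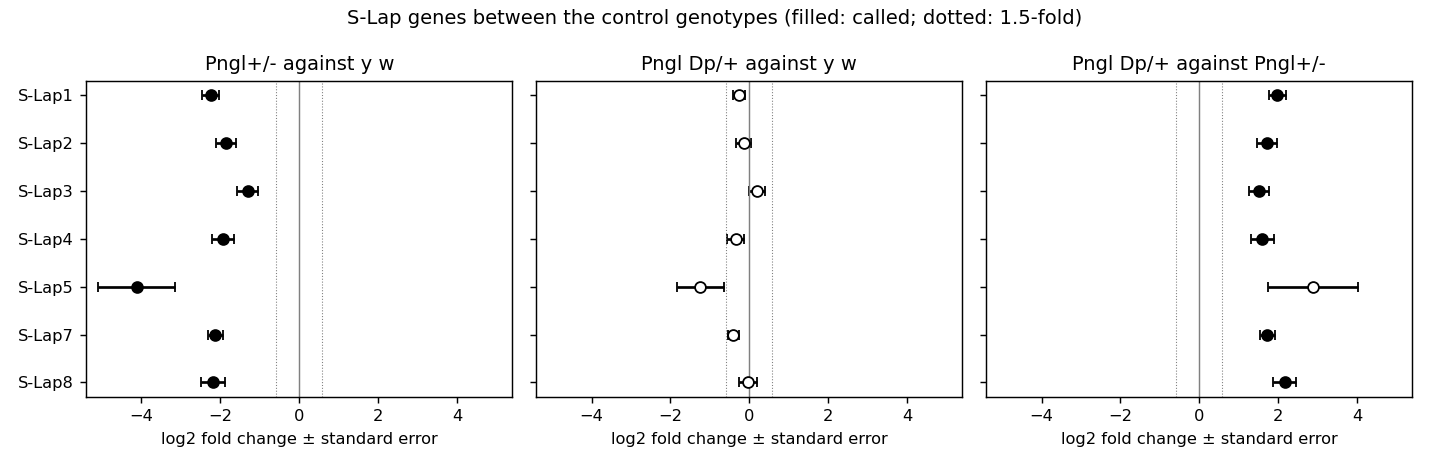
Log2 fold change of each *S-Lap* gene (x axis, with its standard error) in the 3 comparisons between control genotypes. Filled points are called, open points are not, and dotted lines mark 1.5-fold. All 7 genes lie left of the line in *Pngl+/-* against *y w*, with a median of -2.13, none is called in *Pngl Dp/+* against *y w*, and 6 are called higher in *Pngl Dp/+* than in *Pngl+/-*.

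The libraries labelled *Pngl-/-* were used to choose the genes, so their values are given without a test. No member had more than 3 counts in either library. Relative to *y w*, the normalized count of *S-Lap1* was 108-fold lower (counting interval 29.7 to 899), of *S-Lap7* 209-fold lower (37.2 to 8288) and of *S-Lap4* 49.6-fold lower (16.7 to 243). *S-Lap8* had no read, so its level, set at the floor of 3 reads per library, was lower by at least 18.2-fold against *y w*, at least 17.9-fold against *Pngl Dp/+* and at least 3.88-fold against *Pngl+/-*. For *S-Lap5* the bound against *y w* was at least 3.44-fold lower. Both *Pngl-/-* and *Pngl+/-* were at or under that floor for *S-Lap5*, which leaves no fold between them.

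Summed over the 7 genes, the null was lower by 104-fold against *y w* (54.7 to 228), by 89.4-fold against *Pngl Dp/+* (46.9 to 196) and by 25.9-fold against *Pngl+/-* (13.4 to 57.4). *Pngl-/-* and *Pngl Dp/+* are both homozygous for Pngl[ex14].

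Such a fall was not rare in these libraries. Among 10412 genes with at least 60 reads over the 6 control libraries, 501 (4.81%) had at most 3 reads in each null library, and 6 of the 7 *S-Lap* genes reached that minimum. Ranked by their mean level in the controls, *S-Lap1* was number 7 and *S-Lap7* number 9 of these 501 genes. Of the 501, 421 (84.0%) were also at under 0.5 of the *y w* level in *Pngl+/-*. All 6 *S-Lap* genes were among them.

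The family has other members, which lie outside the chosen names. *loopin-1* (FBgn0259795), also known as S-Lap6, encodes another sperm protein of the M17 family. It had 104 and 112 counts in *y w*, 25 and 26 in *Pngl+/-*, 95 and 127 in *Pngl Dp/+*, and 0 and 1 in *Pngl-/-*. It fell in *Pngl+/-* against *y w* by 1.71 on the log2 scale (edgeR adjusted p = 1.92e-06) and was not called in *Pngl Dp/+* (-0.03), the pattern of the *S-Lap* genes. *granny smith* (*grsm*, FBgn0040493), the family member expressed outside the testis, behaved otherwise. Its level was 73.8 ± 0.749 CPM in *y w* (SD, n = 2), 75.6 ± 1.96 in *Pngl Dp/+*, 78.7 ± 2.82 in *Pngl+/-* and 53.0 ± 0.671 in *Pngl-/-*.

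Transcripts of other testis genes were then counted. Their lists were taken from general knowledge of spermatogenesis, but with earlier results of these data known, so the counts are a description. The calls come from the fit of 12990 genes. Of 23 genes for sperm structure and spermatocyte transcripts, 17 were called lower and none higher when *Pngl+/-* was set against *y w*, where 22.5% of the 12990 genes were called lower. In *Pngl Dp/+* against *y w* 2 were called lower and none higher, where 6.40% of the 12990 genes were called lower. The summed level of the list was 34.5 and 34.6 CPM in *y w*, 28.6 and 28.3 in *Pngl Dp/+*, 12.3 and 14.2 in *Pngl+/-*, and 2.90 and 2.77 in *Pngl-/-*. The genotypes had the same order as for the *S-Lap* genes.

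*betaTub85D*, the tubulin of the sperm tail, had 70 and 79 counts in *y w*, 22 and 27 in *Pngl+/-*, 58 and 92 in *Pngl Dp/+*, and none in *Pngl-/-*. *Mst77F*, a protein of condensed sperm chromatin, had 93 and 121 counts in *y w*, 41 and 34 in *Pngl+/-*, 70 and 93 in *Pngl Dp/+*, and 2 and 2 in *Pngl-/-*. Both fell in *Pngl+/-*, by 1.23 and 1.14 on the log2 scale, and both were called. *boule* (*bol*), which is needed for meiotic entry of spermatocytes, had 26 and 31 counts in *Pngl-/-* against 102 and 129 in *y w*, so this list did not go to 0 as a whole.

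Largest among the called changes of the list were those of *Mst35Ba*, a protamine-like gene (-3.06 in *Pngl+/-* against *y w*), *Prosalpha3T*, a testis proteasome subunit (-2.70), and *ocn* (-2.07). *Prosalpha3T* had only 4 and 6 counts in *y w* and 0 and 1 in *Pngl+/-*, with an edgeR adjusted p of 0.0496. In this list 18 of 23 genes had at most 3 reads in each null library, as had 19.2% of the 12990 genes. Among its 18 genes with at least 60 reads in the controls, 13 did, as did 4.81% of all 10412 genes with that many.

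Since S-Lap proteins belong to the sperm mitochondrion, 9 other genes of that organelle were examined. Of these, 5 were called lower in *Pngl+/-* against *y w* (22.5% of all genes) and none was called in *Pngl Dp/+* against *y w* (12.1% of all genes). In each null library 8 of the 9 had at most 3 reads, as had 19.2% of the 12990 genes. *fzo*, the mitofusin that acts in spermatids, had 18 and 21 counts in *y w*, 6 and 6 in *Pngl+/-*, 11 and 16 in *Pngl Dp/+*, and 1 and 1 in *Pngl-/-*. *ATPsynbetaL*, a testis form of an ATP synthase subunit, had 25 and 36, 6 and 8, 22 and 30, and 0 and 1 counts in the same order. The list summed to 6.90 and 6.49 CPM in *y w*, 1.88 and 2.46 in *Pngl+/-*, 4.71 and 5.11 in *Pngl Dp/+* and 0.259 and 0.494 in *Pngl-/-*.

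Genes that control transcription in spermatocytes gave a mixed result. Of 13 such genes, 9 were called lower and none higher in *Pngl+/-* against *y w* (22.5% of all genes lower), and 3 were called lower in *Pngl Dp/+* (6.40% of all genes). The list did not keep the order of the *S-Lap* genes, with 9.97 and 9.19 CPM in *Pngl+/-* and 10.4 and 10.4 CPM in *Pngl-/-*. *aly*, a subunit of the testis meiotic arrest complex, had 13 and 12 counts in *y w*, 3 and 3 in *Pngl+/-*, 3 and 6 in *Pngl Dp/+*, and none in *Pngl-/-*. The most abundant of the list, *achi*, *vis* and *mia*, stayed above 0 in the null libraries. *mia* had 63 and 66 counts in *Pngl-/-* beside 70 and 89 in *y w*.

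Of the comet and cup genes, whose mRNA is made late in sperm development and lies at the tail end of spermatids, 12 had enough counts to be tested. They were called lower in *Pngl+/-* against *y w* in 6 cases (22.5% of all genes). In each null library 11 of the 12 had at most 3 reads, as had 19.2% of the 12990 genes. The exception was *m-cup*, with 200 and 233 counts there. *soti* had 20 and 21 counts in *y w*, 6 and 5 in *Pngl+/-*, 16 and 21 in *Pngl Dp/+*, and none in *Pngl-/-*.

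Early germ line genes were rare in all libraries. The 7 genes of this list summed to 3.68 and 4.02 CPM in *y w* and to 2.13 and 1.88 CPM in *Pngl-/-*, with *AGO3* as the main contributor in the null (36 and 34 counts). In *Pngl+/-* against *y w* 2 of the 7, *vas* and *aub*, were called lower (22.5% of the 12990 genes) and none higher. The largest change was that of *vas*, the germ line helicase. It had 16 and 25 counts in *y w*, 1 and 0 in *Pngl+/-*, 6 and 4 in *Pngl Dp/+*, and 1 and 0 in *Pngl-/-*.

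**Figure D4:**
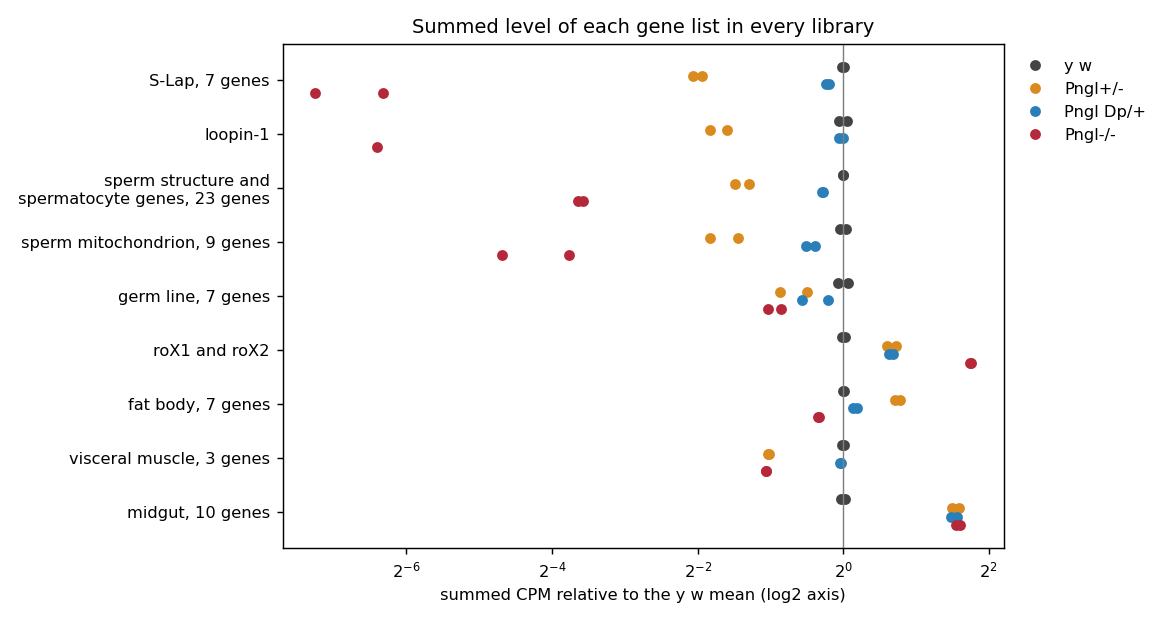
Summed CPM of the *S-Lap* genes and of other gene lists in every library, relative to the mean of *y w* (x axis, log2 scale). One *Pngl-/-* library had no *loopin-1* read and is not drawn. The *S-Lap* genes, *loopin-1* and the lists of sperm structure and sperm mitochondrion run from *y w* and *Pngl Dp/+* through *Pngl+/-* to *Pngl-/-*, while *roX1* and *roX2* are highest in *Pngl-/-* at 176 and 177 CPM.

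RNA from males was present in every library, and its markers differed in their order. *roX1* and *roX2*, the noncoding RNAs of dosage compensation in males, were highest in the null and summed to 53.2 and 51.7 CPM in *y w*, 86.4 and 79.8 in *Pngl+/-*, 81.1 and 84.0 in *Pngl Dp/+* and 176 and 177 in *Pngl-/-*. Of the 12 genes listed from the Y chromosome, 5 had at least 10 counts, and the fertility genes *kl-2*, *kl-3* and *kl-5* were not among them. Of the 5, 3 were called lower in *Pngl+/-* against *y w* (22.5% of all 12990 genes). The 3 ran in the direction of the *S-Lap* genes. *Ppr-Y* had 125 and 167 counts in *y w*, 44 and 50 in *Pngl+/-*, 166 and 83 in *Pngl Dp/+*, and 20 and 62 in *Pngl-/-*. *ARY* had 6 and 10, 0 and 0, 2 and 4, and 0 and 0 counts in the same order, and *Pp1-Y2* had 3 and 14, 0 and 2, 5 and 5, and 0 and 0. The other two were not called. *FDY*, a copy of an autosomal gene, was at 246 and 280, 225 and 202, 195 and 310, and 255 and 193 counts, and *WDY* at 5 and 4, 1 and 2, 14 and 2, and 1 and 0. The part of the share of males in the *S-Lap* levels was not tested.

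Markers of tissues around the gut were set beside the *S-Lap* genes. The 7 fat body genes summed to 31319 and 30949 CPM in *y w*, 53360 and 51078 in *Pngl+/-*, 34153 and 35458 in *Pngl Dp/+*, and 24628 and 24553 in *Pngl-/-*, so that the list was highest in *Pngl+/-*, where the *S-Lap* genes were low. Its members differed. The storage proteins *Lsp1alpha*, *Lsp1beta*, *Lsp1gamma* and *Lsp2* were called higher in *Pngl+/-* against *y w*, and *Fbp1*, *Fbp2* and *apolpp* lower. Of the 12990 genes 22.5% were called lower in this comparison, and of the 7665 that passed the filter 998 were called higher. The 3 visceral muscle genes, all called lower in *Pngl+/-*, summed to 3529 and 3576 CPM in *y w*, 3448 and 3475 in *Pngl Dp/+*, 1755 and 1742 in *Pngl+/-*, and 1702 and 1701 in *Pngl-/-*, so that *Pngl+/-* was close to *Pngl-/-*. The 10 midgut genes summed to 4019 and 4193 CPM in *y w* and to between 11448 and 12505 CPM in the other 6 libraries. Much of this sum was *betaTry*, at 1857 and 1952 CPM in *y w* and 6852 to 8178 CPM in the other 6. The midgut genes did not move together. In *Pngl+/-* against *y w*, *alphaTry* and *betaTry* were called higher, and *Amy-p*, *Mal-A1* and *lab* lower. The median log2 fold change of the 10 was -0.16 there. In *Pngl Dp/+* against *y w*, 3 were called higher and 2 lower (12.1% of all genes in either direction). No gene of the fat body, salivary gland, tubule, hemocyte, visceral muscle or midgut lists was near 0 in the null libraries. Whether these tissues had a part in the *S-Lap* values was not tested.

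Genes close to the *S-Lap* loci did not share one pattern. Of 31 different neighbours, the 3 nearest on each side with at least 10 counts, 9 (against 22.5% of all 12990 genes) were called lower and none higher in *Pngl+/-* against *y w*, and 4 (against 6.40%) were called lower and 1 higher in *Pngl Dp/+* against *y w*. Around *S-Lap1* and *S-Lap2*, *CG6282*, which ends 160 bases before *S-Lap1*, had 9 and 8 counts in *y w*, 6 and 8 in *Pngl+/-* and 4 and 3 in *Pngl-/-*. *GAPsec* had 231 and 249 counts in *y w*, 238 and 183 in *Pngl+/-* and 165 and 137 in *Pngl-/-*, and was not called between controls. *CG5989* differed between *Pngl+/-* and *y w* by 0.51 on the log2 scale, under 1.5-fold, with *Pngl+/-* higher. *Zasp66*, 2279 bases beyond *S-Lap2*, was called lower in *Pngl+/-* against *y w* (log2 fold change -0.70). It had 1778 and 1831 counts in *Pngl-/-* beside 3546 and 4212 in *y w*.

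Near *S-Lap3* and *S-Lap4*, *CG12362* (21 and 27 counts in *y w*, 3 and 3 in *Pngl+/-*, 17 and 23 in *Pngl Dp/+*, 0 and 1 in *Pngl-/-*) and *CG32061* (7 and 10, 0 and 1, 4 and 3, and 0 and 0 counts) resembled them, while *Gem3* (120 and 121, 76 and 56, 88 and 138, and 45 and 47 counts) stayed well above 0. *Rbfox1*, 12437 bases beyond *S-Lap3*, had 323 and 398, 178 and 154, 286 and 401, and 91 and 96 counts. It was called lower in *Pngl+/-* against *y w* (log2 fold change -0.74). *S-Lap8* has the sperm mitochondrial gene *knon* on one side. *knon* had 18 and 16 counts in *y w*, 8 and 4 in *Pngl+/-*, 10 and 19 in *Pngl Dp/+* and none in *Pngl-/-*. Beyond it lie *Sema2a*, with 737 and 866 counts in *y w* and 126 and 136 in *Pngl-/-*, and *loopin-1*, described above. Both were called lower in *Pngl+/-* against *y w* (-0.78 and -1.71). So was *stj* near *S-Lap7* (66 and 75, 11 and 12, 26 and 30, and 2 and 4 counts). *fl(2)d* near *S-Lap7* and *fand* near *S-Lap5* were not called between controls. Of the 31 neighbours, 15 had at most 3 reads in each null library, against 19.2% of the 12990 genes. Many of the 15 had few reads in the controls.

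Among the other genes that passed the filter, *CG4836* (FBgn0270925) had the profile most like that of *S-Lap1*, with a root mean square difference of 0.161 in centred log2 CPM over the 8 libraries (Pearson's r = 0.997). A prior of 2 counts was added before taking logs. It narrows the fall of genes with few reads in the null libraries, so the differences depend on it. Its counts were 120 and 145 in *y w*, 21 and 24 in *Pngl+/-*, 111 and 129 in *Pngl Dp/+*, and 2 and 0 in *Pngl-/-*. The next were FBgn0028519 (0.416), *CG12699* (0.496), *Fbp2* (0.625) and *blanks* (0.64), of which *Fbp2* encodes a fat body protein and *blanks* a double-stranded RNA binding protein of the testis. *Fbp2* was far more abundant, with 29736 and 33478 counts in *y w*, 14124 and 12357 in *Pngl+/-*, 26027 and 35494 in *Pngl Dp/+*, and 982 and 1144 in *Pngl-/-*. Against the summed profile of the 7 genes, the 10 nearest also included *sona*, FBgn0040001, *Cht6* and 2 cytochrome P450 genes, *Cyp6a17* and *Cyp4p2*, at differences of 0.998 to 1.10. The likeness is over the same 8 libraries that share 4 genotypes, and it is a description.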

How the data were processed

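The authors sequenced larval midgut RNA as paired-end reads of strand-specific mRNA libraries, 2 for each of 4 genotypes. The authors trimmed reads with cutadapt (1.4 in the submitters' processing notes), aligned them to dm6 with STAR (2.5.3 in those notes) and deposited raw counts per gene, totalled over the collapsed exons of FlyBase Release 6.20, with no normalization and no filter. The use of strand in counting is not given in the sources used here. Columns were matched to samples by the labels.

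edgeR 4.0.16 in R 4.3.3 fitted all 8 libraries with 1 mean per genotype and TMM factors from the 7665 genes reaching 5 CPM in 2 or more libraries. Since 5 of the 7 members fell below that filter, a second fit took the 12990 genes with at least 10 counts and the same factors. P-values were adjusted (Benjamini-Hochberg) over all genes of a fit. The test was checked on simulated counts. With 2 libraries per genotype, p-values rest on a spread shared by all genotypes, although the *Pngl Dp/+* libraries differed most from each other. Replicates are biological per the methods. Totals were 20414011 to 28382919, and 3 reads correspond to 0.0951 to 0.16 CPM.

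Gene positions and names came from Ensembl release 115 and the name tables (same assembly). Python 3.11.15, pandas 2.3.3 and scipy 1.17.1 gave counting intervals. The members and lists were chosen with earlier results of these data known. Genes named are the members, their paralogs, the most abundant and most changed genes of each list, genes beside the members and those of most similar profile. Alternatives were the likelihood ratio test, DESeq2 1.42.0, other scalings (RLE, upper-quartile, none for composition, TMM over all genes), a filter at 1 CPM or none, fits of 2 genotypes, a replicate block and each library left out. Sequences were not analysed here.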

Additional observations from a re-analysis of the deposited data

How the results depend on the processing

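Over 21 values (7 members in 3 comparisons between controls), 375 of 381 alternative values kept the direction or call of the reported one, and the 6 others concern *S-Lap5*. DESeq2 gave no adjusted p for *S-Lap5* in *Pngl Dp/+* against *y w*. In *Pngl Dp/+* against *Pngl+/-* it was called with the likelihood ratio test (log2 fold change 2.88, adjusted p = 0.0199 from edgeR), without composition normalization (3.16) and with no filter (2.88). Leaving out a library moved *S-Lap5* between 1.61 and 5.39 there, between -2.49 and -0.71 in *Pngl Dp/+* against *y w*, and between -6.63 and -3.33 in *Pngl+/-* against *y w*. *S-Lap1* in *Pngl+/-* against *y w* stayed between -2.61 and -2.12 under all alternatives and between -2.29 and -2.22 with each library left out. *S-Lap8* in *Pngl Dp/+* against *y w*, which was not called, ranged from -0.18 to 0.11 with a library left out and so changed sign. Leaving out composition normalization moved the median of the 12990 genes in *Pngl+/-* against *y w* from -0.19 to -0.54, and *S-Lap1* to -2.61.

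With no filter on low counts and the same TMM factors, more genes were tested and called: 4130 instead of 2343 in *Pngl+/-* against *y w*, 1642 instead of 955 in *Pngl Dp/+* against *y w*, 2737 instead of 1677 in *Pngl Dp/+* against *Pngl+/-*, and 5936 instead of 3242, 2702 instead of 1586 and 4885 instead of 2627 in *Pngl-/-* against *y w*, *Pngl+/-* and *Pngl Dp/+*. A CPM of at least 1 gave 1462 in *Pngl Dp/+* against *y w*. The direction of calls depended on scaling. In *Pngl+/-* against *y w* the calls were 998 higher and 1345 lower, 450 and 2643 without composition normalization, and 1373 and 1063 with TMM factors from all genes. In *Pngl Dp/+* against *Pngl+/-* the split was 1071 and 606, 2193 and 287, and 886 and 808, and in *Pngl Dp/+* against *y w* 520 and 435, but 436 and 563 with upper-quartile factors. For *Pngl-/-* it was 1375 and 1867 against *y w* (541 and 3002, then 2118 and 1425) and 924 and 1703 against *Pngl Dp/+* (373 and 2778, then 1541 and 1339).

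Same-numbered libraries deviated together with correlations from -0.188 to 0.26, so the numbers do not pair the samples, and the replicate block gave 2337 genes in *Pngl+/-* against *y w*, 949 in *Pngl Dp/+* against *y w* and 1673 in *Pngl Dp/+* against *Pngl+/-*, with no call of a member changed. A crossed pairing, added after seeing the data, gave 955 in *Pngl Dp/+* against *y w* and called *S-Lap5* there (-1.31, adjusted p = 0.0477 from edgeR). Depth limits *S-Lap5* (40 reads in all) and every fold against the null.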

Other observations

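The lists of other tissues around the gut did not move as single groups. Of the 3 Malpighian tubule genes, *Uro*, a urate oxidase, had 1820 and 2133 counts in *y w*, 2044 and 1827 in *Pngl+/-*, 588 and 800 in *Pngl Dp/+* and 2156 and 2108 in *Pngl-/-*, and was called lower in *Pngl Dp/+* against *y w* (log2 fold change -1.57). *Irk3* (0.01) and *ZnT35C* (0.26) were not called there. Of the 4 hemocyte genes, *Hml* and *eater* were called lower in *Pngl+/-* against *y w* (-1.53 and -1.42), and *NimC1* and *Pxn* higher (1.87 and 0.68). Of the 6 salivary glue genes, *Sgs1* and *Sgs3* were called lower in *Pngl+/-* against *y w* (-1.44 and -0.63), *Sgs5*, *Sgs7* and *Sgs8* higher (0.77, 1.39 and 1.62), and *Sgs4* was not called (0.37). These calls come from edgeR's fit of the 12990 genes. Of these, 22.5% were called lower in *Pngl+/-* against *y w* and 6.40% in *Pngl Dp/+* against *y w*. In the fit of 7665 genes, 998 were called higher in *Pngl+/-* against *y w*.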
